A study of Mus musculus with 12 samples.

Results

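The EGF family ligands and their ERBB receptors were followed through wound healing (WH) in basal cells of mouse tail epidermis, at the leading edge (LE), in the proliferative hub and in control skin. The set held 6 ligands, Ereg, Tgfa, Epgn, Hbegf, Btc and Egf, and 3 receptors, Egfr, Erbb2 and Erbb3. They were taken by gene symbol from probe sets annotated to a single gene, which gave 9 of 17097 genes and 19 of 28898 probe sets. The brightest probe set of a gene, by its mean over all 12 arrays, leads its account, and the other 10 probe sets are described with it.

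EGF family ligands are made as membrane-bound precursors and are released by metalloproteases of the cell surface. They bind the EGF receptor (EGFR) or its relatives, the receptors pair, and the paired kinases pass the signal on through adaptors to the RAS to ERK cascade and to PI3 kinase. In epidermis most of these ligands come from keratinocytes themselves, and the pathway is known for its part in keratinocyte growth, survival and migration. ERBB2 has no known ligand of its own, and ERBB3 has only weak kinase activity, so both work mainly as partners in receptor pairs.

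All mice were of the CD1 strain and all groups came from wounded tails, the control from a piece of skin far from the wound. The wound was 3 mm wide, and skin punched out at 4 mm served as LE and at 6 mm as proliferative hub, 4 (D4) or 7 days (D7) later, so each region was an enriched ring rather than a pure zone. For each of the 6 groups there were 2 arrays, hybridised with amplified cDNA of 300 sorted basal cells (α6-integrin positive, CD34 negative) from 5 pooled mice. The age and sex of these mice were not given in the sources used here. Arrays of a group are labelled as biological replicates, but no source used here tells if they were separate pools, so the p values below measure the spread between these arrays, which may be technical.

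The values are log2 intensities after RMA, and a difference of 1 on that scale is a 2-fold change. Array medians were 5.40 to 5.47 at D4 and 4.25 to 4.28 at D7, so the days do not share a level and regions were set against each other within a day. Across probe sets, taken as a description, the pair of arrays of a group correlated with r between 0.988 and 0.993. The basal keratins were bright on every array, Krt5 between 11.93 and 12.72 and Krt14 between 11.56 and 12.58. Itga6, the antigen of the sort, lay between 10.11 and 11.72 and was higher at the LE at D4 by 0.42 (adjusted p = 0.0327), and Cd34, the excluded antigen, between 3.08 and 4.94. Genes listed for other cells or for follicle regions moved with the LE in places. There limma called 14.1% of all genes against control at D4 and 14.6% at D7. Of 5 bulge genes, Krt15 and Sox9 were lower in the LE at D4 and Krt15 at D7. At D4 Lgr5 (1.03) and Cd34 (0.57) read higher and Lhx2 read -0.11, with no call. In control at D4 Lgr5, Cd34 and Lhx2 were dim (3.91 to 4.59), while Krt15 and Sox9 read 9.63 to 10.52. Whether the fall of Krt15 and Sox9 was one of bulge cells was not tested. The summed linear signal of the 5 bulge genes, mostly that of the bright Krt15 and Sox9, was 765 to 1082 against 2122 to 2319 in control at D4. At D7 it was 620 to 725 against 1398 to 1514. Of 4 endothelial genes, Cdh5 was higher in the LE at D7 (summed signal 219 to 260 against 86.3 to 112 in control). Of 6 macrophage and neutrophil genes, Cd68 was higher at D4 (summed signal 213 to 297 against 214 to 232). Itgam (-0.43), Lyz2 (-0.38) and Csf3r (-0.19) read lower there with no call, and the list median was -0.14. Of 6 melanocyte genes, Mitf was lower in the LE on both days (summed signal 257 to 296 against 364 to 989 in control at D4, and 135 to 138 against 183 to 185 at D7). Of 7 suprabasal genes, Krt1 and Krt10 were lower in the LE at D4 (summed signal 10675 to 11427 against 15088 to 15235). Ivl alone read higher there (0.72, with no call), and the list median was -0.26. At D7 Dcn, of 5 fibroblast genes, and Plet1, of 4 infundibulum genes, were lower in the LE. In the paper the α6-integrin stain covered infundibulum cells too, so genes of that list need not mark cells outside the sort. For some lists the arrays of a group were uneven at D4. In the hub the summed melanocyte signal was 350 to 1977, and Tyrp1 read 4.83 and 9.63. Of the infundibulum genes, Krt79 read 10.42 and 8.55 in the hub and 10.38 and 7.85 in control. Defb6 read 10.87 and 9.05 in the hub and 10.89 and 8.04 in control. None of 6 Langerhans and T cell genes was called at the LE, and in the hub no marker of any list was called against control. Of these calls only those of Krt15 at D4 and Plet1 held whichever array was left out. Of 12 such fits, 8 lost Sox9 (limma adjusted p up to 0.211, without control D4 replicate 1), 5 lost Cd68 (up to 0.231, without LE D4 replicate 1), 4 lost Cdh5 (up to 0.139, without LE D7 replicate 1) and 4 lost Itga6 (up to 0.136, without LE D4 replicate 1), while Krt1, Krt10, Dcn, Mitf and Krt15 at D7 were lost in 2 to 4 (up to 0.173, Krt10 without LE D4 replicate 1). RMA values have no true 0, so an absent marker cannot be told from a dim one, and the part of these cells in the results below was not tested.

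For orientation on the loci, Epgn, Ereg, Areg (amphiregulin) and Btc are neighbours on chromosome 5 in the RefSeq annotation of GRCm38.p6, with 0 other protein-coding genes between them. Areg was not analysed here. RefSeq promoter windows of 300 bases, from 250 before to 50 after a start site, were read for 6 of the 9 members. The 250 bases before the start are shown for Epgn, a ligand that was higher at the LE, and for Egfr, the receptor that was lower there, 5′ to 3′ on the plus strand of GRCm38.p6, with matches to the searched motifs in capitals.
Epgn, chr5:91027267-91027516: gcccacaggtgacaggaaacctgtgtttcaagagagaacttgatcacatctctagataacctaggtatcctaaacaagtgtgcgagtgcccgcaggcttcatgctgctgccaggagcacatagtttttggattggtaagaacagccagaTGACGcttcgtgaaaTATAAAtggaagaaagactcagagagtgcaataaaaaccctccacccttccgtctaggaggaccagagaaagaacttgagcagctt
Egfr, chr11:16751953-16752202: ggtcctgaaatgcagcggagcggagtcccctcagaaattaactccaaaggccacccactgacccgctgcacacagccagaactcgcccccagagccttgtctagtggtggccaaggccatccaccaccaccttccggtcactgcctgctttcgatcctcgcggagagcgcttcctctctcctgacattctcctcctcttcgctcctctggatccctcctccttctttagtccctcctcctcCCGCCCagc
In Epgn the capitals mark a match to the core motif of a cyclic AMP response element (TGACG), beginning 101 bases before the start. They also mark a match to the letters of the TATA box motif (TATAAA), beginning 86 bases before the start. In Egfr they mark a match to the GC box motif (GGGCGG, here on the other strand) that begins 9 bases before the start.

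Each motif was searched on both strands, and the matches printed here do not overlap each other. Of 32851 mouse promoter windows of the same length, 20.8% hold TGACG, 13.6% hold TATAAA and 35.7% hold GGGCGG. The AP-1 motif TGANTCA, held by 7.81% of all windows, had no match in the 6 members read. GGAATG, a motif of TEAD factors held by 14.7% of all windows, had a match in Erbb2 alone among the 6. TGACG was also found in the windows of Btc and Erbb2, and GGGCGG in that of Tgfa. A match is a description of letters, not a binding site.

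At the LE, 3 ligands were higher than in control skin of the same day, and they were the same 3 at D4 and D7: Ereg, Tgfa and Epgn. At D4 they were 3 of the 9 members, where limma called 14.1% of all genes changed, 8.3% higher and 5.83% lower, at an adjusted p under 0.05. At D7 the same 3 were higher and Egfr was lower, 4 of 9 members, against 14.6% of all genes called, 9.25% higher and 5.37% lower. In the hub limma called 0 of 9 at D4, with 1 at an unadjusted p under 0.05 (0.328% of all genes called, 0.222% higher), and only Ereg at D7 (0.76% called, 0.591% higher). Set directly against the hub, the LE was higher for Ereg, Tgfa and Epgn at D4 (4.76% called, 2.61% higher and 2.15% lower) and for Ereg and Tgfa at D7 (2.73% called, 1.33% higher and 1.4% lower). These comparisons share arrays: LE and hub of a day have their control arrays in common, and the LE arrays enter the comparison with control and that with the hub. In sorted bulk samples, fewer cells of a type and less RNA per cell cannot be told apart.

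**Figure D1:**
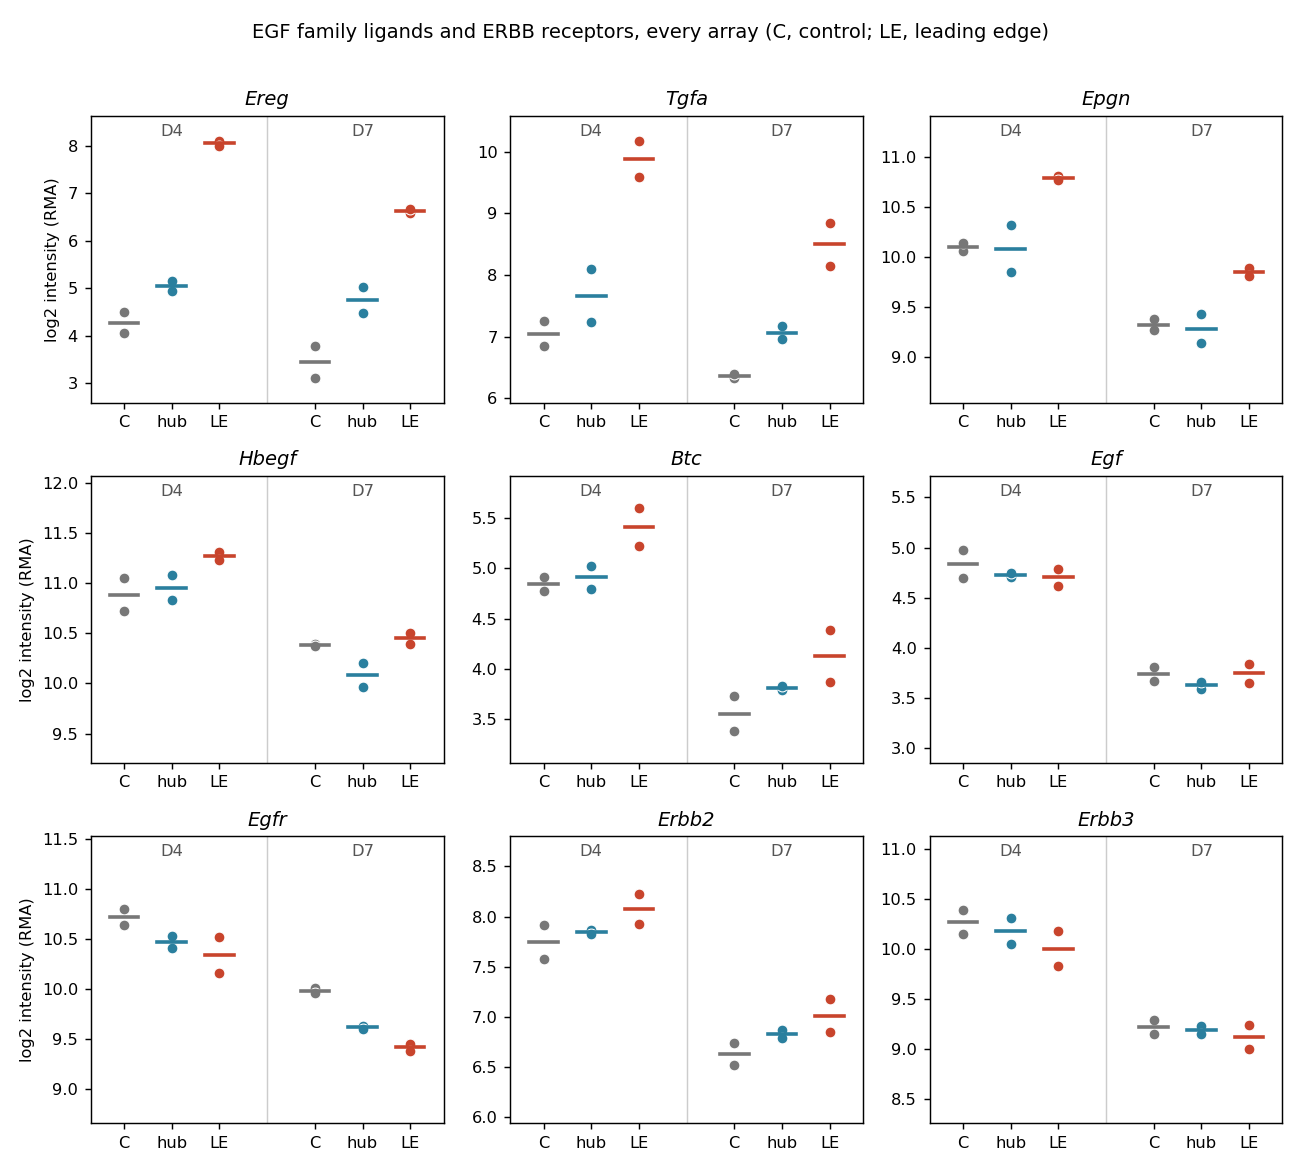
Log2 RMA intensity of the leading probe set of each of the 9 members on every array (points) with the group mean (line), for control skin (C), proliferative hub and LE at D4 and D7; each panel has its own vertical scale. The LE points of Ereg and Tgfa lie above every control and hub point of the same day, while those of Egf overlap control on both days.

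Ereg encodes epiregulin, a ligand of EGFR and ERBB4 that keratinocytes secrete as a growth factor for themselves. Its values at D4 were 4.49 and 4.05 in control, 5.15 and 4.94 in the hub, and 8.10 and 8.0 at the LE. At D7 they were 3.79 and 3.11 in control, 4.47 and 5.02 in the hub, and 6.58 and 6.67 at the LE. On each day all arrays of the LE lay above all of the hub, and all of the hub above all of control, with no overlap between the groups. Ereg rose at the LE by 3.78 (SE 0.24, 95% interval 3.23 to 4.33, limma adjusted p = 2.18e-05) at D4 and by 3.18 (2.63 to 3.72, adjusted p = 6.58e-05) at D7. Its control values were low on their arrays, whose lowest probe sets read 3.35 and 3.36 at D4 and 2.45 and 2.48 at D7. Whether Ereg was above background in control skin is not known from the deposited values, so these differences and their intervals are those of the RMA values and no fold or rank is given for them.

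The hub was intermediate for Ereg. Its difference from control was 0.77 (95% interval 0.23 to 1.32, adjusted p = 0.243) at D4, and at D7 Ereg rose there by 1.30 (0.75 to 1.85, adjusted p = 0.0487). When arrays were left out singly, the D7 call remained only without a control D4 array and was lost in the other 10 of 12 fits, with the highest adjusted p of 0.37 without proliferative hub D7 replicate 2. It was also lost with the replicate number as a block (adjusted p = 0.0689). The hub values of Ereg at D4 lay below the medians of their arrays, both 5.42, so no fold over the hub is given for that day. Against the hub, the LE was higher by 3.01 (2.46 to 3.55, adjusted p = 0.000215) at D4 and by 1.88 (1.33 to 2.42, adjusted p = 0.00547) at D7, or 3.67-fold. Without LE D7 replicate 1 the second of these had an adjusted p of 0.0524. The difference between LE and hub at D7 minus that at D4 was -1.13 (95% interval -1.90 to -0.36, unadjusted p = 0.00871 in limma), which did not pass after adjustment over all genes (adjusted p = 0.9).

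Tgfa encodes transforming growth factor α, an EGFR ligand that keratinocytes both make and respond to. At D4 it read 7.25 and 6.84 in control, 8.10 and 7.23 in the hub, and 10.17 and 9.58 at the LE. At D7 it read 6.33 and 6.39 in control, 7.17 and 6.96 in the hub, and 8.84 and 8.15 at the LE. The LE arrays stood above all others of their day, and the hub overlapped control at D4 and did not at D7. The hub arrays of D4 lay 0.87 apart. At the LE Tgfa rose 7.13-fold at D4, by 2.83 on the log2 scale (SE 0.31, adjusted p = 0.00038), and 4.40-fold at D7, by 2.14 (SE 0.31, adjusted p = 0.00203). For the hub the difference was 0.62 (95% interval -0.08 to 1.32) at D4 and 0.71 (0.00 to 1.41) at D7, neither past the threshold. The LE was higher than the hub by 2.22 (95% interval 1.51 to 2.92, adjusted p = 0.00408) at D4 and by 1.43 (0.73 to 2.13, adjusted p = 0.0462) at D7. The D7 call was lost without any 1 of the 6 arrays of that day, with the highest adjusted p of 0.28 and a difference of 1.09 without LE D7 replicate 1.

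Tgfa had 3 probe sets, and all pointed the same way. Against control the other 2, 1450421_PM_at and 1421943_PM_at, rose at the LE by 1.44 and 3.01 at D4 and by 0.99 and 1.68 at D7, in a fit of every probe set that called 13.1% of them at D4 and 13.6% at D7. Neither was called in the hub, where the differences were 0.35 and 0.49 at D4 and 0.51 and 0.81 at D7. Against the hub, 1421943_PM_at was higher at the LE at D4 by 2.53 (adjusted p = 0.00373), while 1450421_PM_at read 1.08 (adjusted p = 0.0511), where 4.33% of probe sets were called. At D7 they read 0.48 and 0.87 with no call, against 2.26% of all probe sets.

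Epgn encodes epigen, a ligand of EGFR made in epithelia. Its D4 values were 10.07 and 10.14 in control, 10.32 and 9.85 in the hub, and 10.81 and 10.78 at the LE. Its D7 values were 9.27 and 9.38 in control, 9.14 and 9.43 in the hub, and 9.90 and 9.81 at the LE. The LE lay above both other groups on each day, and hub and control overlapped on both. At the LE Epgn rose 1.62-fold at D4, by 0.69 (SE 0.16, adjusted p = 0.0156), and 1.44-fold at D7, by 0.53 (SE 0.16, adjusted p = 0.0495). Within the hub it differed from control by -0.02 (95% interval -0.36 to 0.33) and -0.04 (-0.39 to 0.31). Against the hub it was higher by 0.71 at D4 (95% interval 0.36 to 1.06, adjusted p = 0.0312), and the difference at D7 was 0.57 (SE 0.16, adjusted p = 0.0945).

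Each call of Epgn depended on single arrays. Against control at D4 the call was lost without any 1 of the 4 LE or control arrays of that day (adjusted p up to 0.0741, without LE D4 replicate 1). At D7 it was lost in 10 of 12 fits, all except those without a hub D4 array (up to 0.215, without LE D7 replicate 1), and with the replicate number as a block (adjusted p = 0.0546). Against the hub at D4 it was lost in 7 of 12 fits, those without either LE D4 array, proliferative hub D4 replicate 2, either LE D7 array or either control D7 array (up to 0.203, without the hub array). The difference kept its sign in each of these fits, between 0.66 and 0.73 for the LE against control at D4, 0.47 and 0.58 at D7, and 0.47 and 0.94 against the hub at D4.

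Of the other ligands, Hbegf, the heparin-binding member shed at epithelial wounds, was not called in any comparison. It read 11.05 and 10.72 in control, 11.08 and 10.83 in the hub and 11.31 and 11.23 at the LE at D4. At D7 it read 10.39 and 10.37, 9.96 and 10.20, and 10.39 and 10.50 in the same order. The LE lay above control and hub on both days. Its difference at the LE was 0.39 (95% interval 0.07 to 0.70, adjusted p = 0.106) at D4 and 0.07 (-0.25 to 0.39) at D7, and in the hub 0.07 and -0.30. Its other probe set, 1418350_PM_at, read 0.32 and 0.19 at the LE and -0.15 and -0.28 in the hub, with no call.

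Btc encodes betacellulin, a ligand of EGFR and ERBB4. Its leading probe set read 4.92 and 4.77 in control, 5.03 and 4.80 in the hub and 5.60 and 5.23 at the LE at D4, and 3.38 and 3.72, 3.78 and 3.83, and 4.39 and 3.86 at D7. The LE lay above control and hub without overlap on both days. The difference from control was 0.57 (95% interval 0.13 to 1.01, adjusted p = 0.0907) at D4 and 0.58 (0.13 to 1.02, adjusted p = 0.0834) at D7, neither past the threshold. Without LE D7 replicate 2, the lower array, the D7 difference was 0.84 and passed (adjusted p = 0.0385). The other probe set, 1435541_PM_at, read 0.03 at D4 and 0.20 at D7 and overlapped control at D4.

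Egf, the ligand that gave the family its name and that is made mostly outside the epidermis, had 1 probe set. At D4 it read 4.98 and 4.69 in control, 4.71 and 4.74 in the hub and 4.79 and 4.62 at the LE, and at D7 3.67 and 3.81, 3.59 and 3.66, and 3.84 and 3.65. LE and control overlapped on both days, and the differences were -0.13 (95% interval -0.41 to 0.15) and 0.01 (-0.27 to 0.29). Ereg, Btc and Egf were the 3 members whose mean over the arrays was below the median of all genes, and the deposited values carry no detection call.

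**Figure D2:**
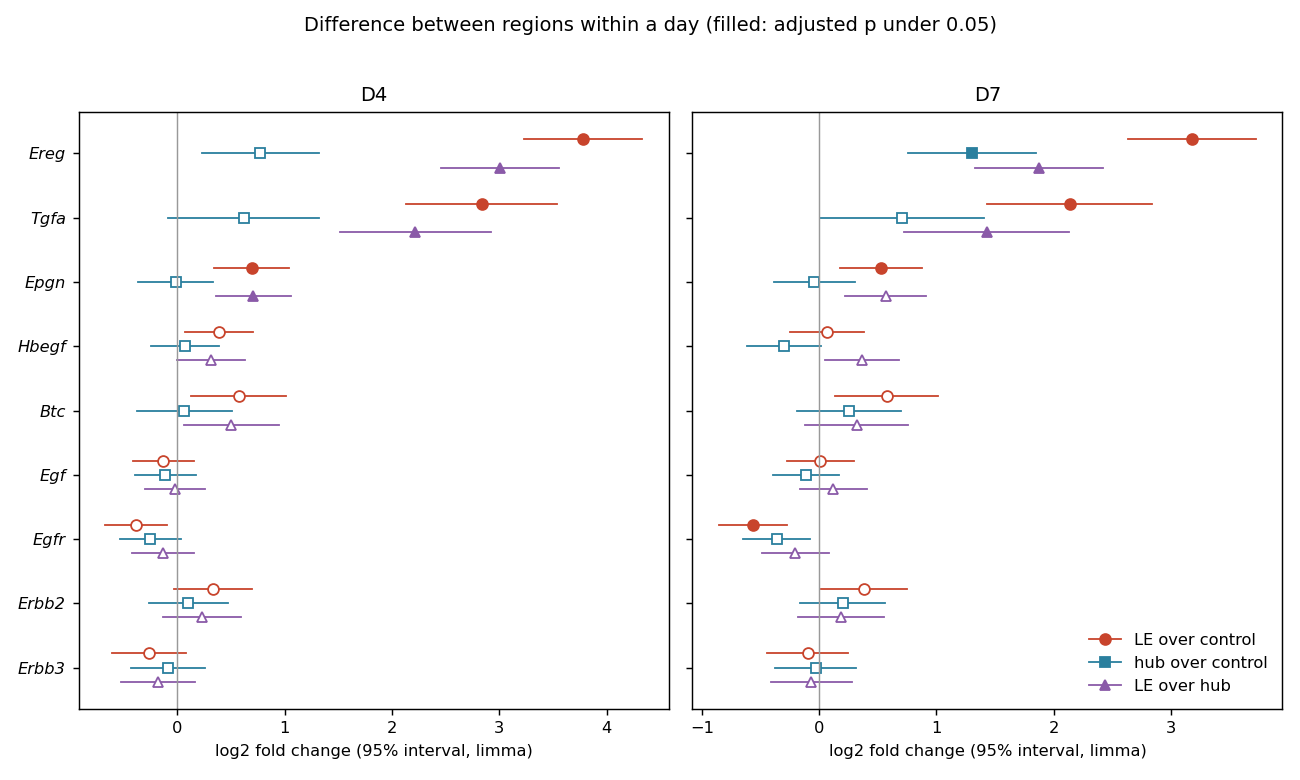
Log2 fold change of each member between regions within D4 and D7, with its 95% interval from limma; circles show LE over control, squares hub over control and triangles LE over hub, filled where the adjusted p was under 0.05, and the panels have different horizontal scales. Ereg at 3.78, a difference of RMA values from a dim control, and Tgfa at 2.83 stand apart at D4. The intervals of Egf and Erbb3 cross 0 in all 6 comparisons.

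Among the receptors, Egfr was the 1 member that passed as lower, at the LE at D7. At D4 it read 10.64 and 10.80 in control, 10.53 and 10.41 in the hub and 10.52 and 10.16 at the LE. At D7 it read 10.01 and 9.96 in control, 9.64 and 9.60 in the hub and 9.45 and 9.38 at the LE. Both wound regions lay below control on both days, and at D7 the LE also lay below the hub. At D7 Egfr at the LE fell by 0.56 (SE 0.13, adjusted p = 0.0164), to 0.676 of control. At D4 the difference was -0.38 (95% interval -0.67 to -0.09, adjusted p = 0.0827), and in the hub -0.25 at D4 and -0.36 (-0.65 to -0.08, adjusted p = 0.259) at D7. LE and hub differed by -0.13 and -0.20, with no call. The D7 call was lost without any 1 of the 4 LE or control arrays of that day, with adjusted p of 0.065 to 0.0853, and a call appeared at D4 without LE D4 replicate 1 (-0.56, adjusted p = 0.0264).

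Egfr had 6 probe sets, and all 6 lay below control in both regions and on both days in their means. At D7 the leading set and 1454313_PM_at (-0.58, adjusted p = 0.00872) were lower at the LE, and the other 4 read -0.22 to -0.73 without a call. At D4 only 1432647_PM_at was lower (-0.88, adjusted p = 0.028), and the other 5 read -0.38 to -0.00. In the hub the 6 sets read -0.09 to -0.43 at D4 and -0.12 to -0.39 at D7, with no call. Which transcripts each set reads was not analysed here.

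**Figure D3:**
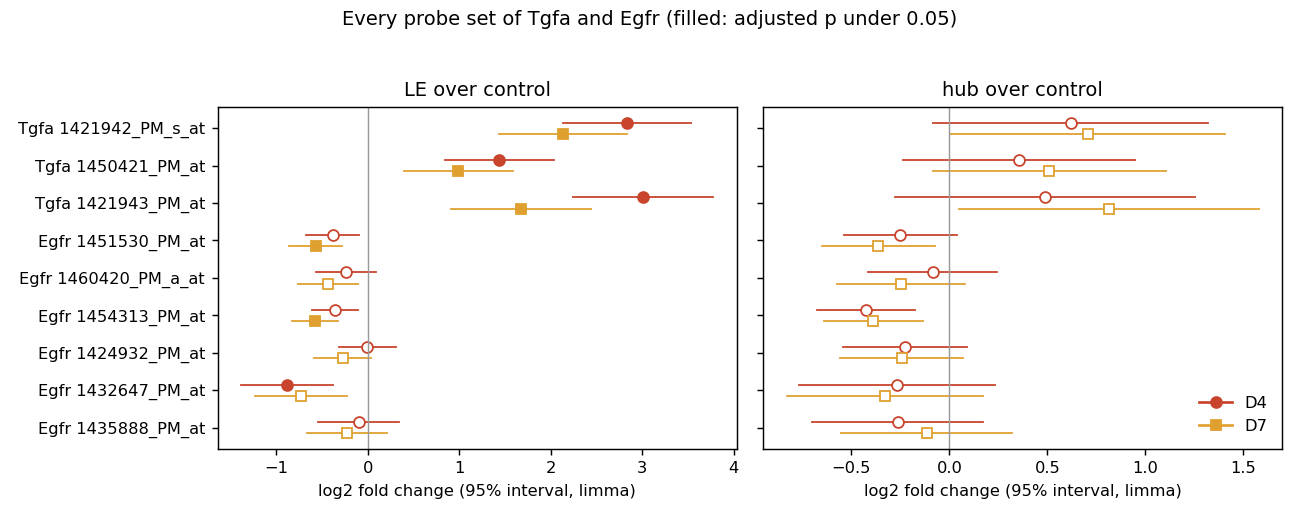
Log2 fold change over control of every probe set of Tgfa and Egfr, at the LE (left) and in the hub (right), with 95% intervals from limma, circles for D4 and squares for D7, filled where the adjusted p over all probe sets was under 0.05; the horizontal scales differ. The 3 Tgfa sets lie above 0 and the 6 Egfr sets at or below it, the Egfr set furthest from 0 at -0.88 at the LE at D4.

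Erbb2, the partner receptor without a ligand, read 7.92 and 7.57 in control, 7.87 and 7.83 in the hub and 8.23 and 7.93 at the LE at D4, and 6.52 and 6.74, 6.87 and 6.79, and 7.18 and 6.84 at D7. The LE lay above control without overlap on both days. Its difference at the LE was 0.33 (95% interval -0.03 to 0.70) at D4 and 0.38 (0.02 to 0.75) at D7, and in the hub 0.10 and 0.20, with no call. Erbb3, the partner with weak kinase activity, read 10.39 and 10.15 in control, 10.31 and 10.05 in the hub and 10.18 and 9.83 at the LE at D4, and 9.29 and 9.15, 9.23 and 9.15, and 9.0 and 9.25 at D7. Its groups overlapped in all 6 comparisons. Its difference at the LE was -0.26 (95% interval -0.61 to 0.08) at D4 and -0.10 (-0.44 to 0.25) at D7, and its other probe set, 1452482_PM_at, read -0.27 and 0.05.

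Counted over the set, 7 of 9 members did not overlap between LE and control on each day, where 49.4% of all genes did not at D4 and 55% at D7. Between hub and control it was 2 of 9 at D4 and 7 of 9 at D7, against 39.2% and 43.9% of all genes. Between LE and hub it was 6 of 9 on each day, against 43.7% and 47.1%. By the fold rule that the methods give for a signature, above 2-fold in each replicate, Ereg and Tgfa passed at the LE on both days, where 2.26% of all genes were that much higher at D4 and 1.83% at D7. Tgfa was 7.60- and 6.69-fold above the control array of the same number at D4 and 5.69- and 3.40-fold at D7, while for Ereg the dim control leaves the size of the fold unknown. In the hub 0 of 9 members passed, where 0.357% and 0.328% of all genes did.

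Whether a difference changed from D4 to D7 was tested for all 9 members. limma called 0 of 9 for the LE against control (0.0292% of all genes called, 0.00585% higher and 0.0234% lower), 0 of 9 for the hub against control (0% called) and 0 of 9 for the LE against the hub (0.0175% called). At an unadjusted p under 0.05 there was 1 member, Ereg in the LE against the hub. The change between days of the LE response was -0.60 (95% interval -1.37 to 0.17) for Ereg, -0.70 (-1.69 to 0.29) for Tgfa and -0.17 (-0.66 to 0.33) for Epgn.

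After the mean of each day was taken out, the members could be compared across the 12 arrays, as a description without a test, since the points share groups and arrays. Ereg and Tgfa followed each other with a Pearson r of 0.96, Tgfa and Epgn with 0.91 and Ereg and Epgn with 0.88. Btc, which was not called, was as close to Tgfa as Epgn was (0.91). Of 17096 other genes, Tgfa was the 46th most like Ereg and Epgn the 667th, and Epgn was the 389th most like Tgfa. Btc and Erbb2 followed each other with 0.94, and Ereg and Egfr ran opposite with -0.80. Egf followed none of the 3 called ligands, with r of -0.18 to -0.02. Of 562 genes whose group means spanned at least 1 log2 unit on each day, the 5 most like Ereg were Bag2 (r = 0.98), Sec24d, Kdelr3, Lrrc8a and Map4k4. Bag2 is a co-chaperone, and Sec24d and Kdelr3 belong to traffic between endoplasmic reticulum and Golgi. The 5 most like Tgfa were Inhba (r = 0.98), which encodes the activin A subunit, Fblim1, Tead4, Sorcs2 and Spsb1. The 5 most like Epgn, of 563 genes, were the collagenase gene Mmp13 (r = 0.96), Neu2, Plod2, Gpr35 and again Inhba.

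Other genes of the pathway were counted by lists chosen for their role. At the LE limma called 8.3% of all genes higher and 5.83% lower at D4, 9.25% and 5.37% at D7, and the median of all genes was 0.03 and 0.02. The lists are small, and their counts are given as descriptions beside these shares. Of the remaining ligands and receptor, 5 of 6 were measured, and Nrg1, a neuregulin that binds ERBB3 and ERBB4, rose at the LE by 1.46 at D4 (SE 0.30, adjusted p = 0.0106) and by 1.05 at D7 (adjusted p = 0.0438). In the hub Nrg1 differed from control by -0.01 on each day, and the LE was above the hub by 1.47 (SE 0.30, adjusted p = 0.0237) at D4. Of 12 fits that each left out an array, the call against control was lost in 2 at D4 (adjusted p up to 0.068, without control D4 replicate 2) and in 7 at D7 (up to 0.283, without LE D7 replicate 1), and that against the hub in 4 (up to 0.158, without hub D4 replicate 2). Nrg2, Nrg3, Nrg4 and Erbb4 were not called, and the list medians were 0.05 and 0.07.

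Of 11 genes of ligand shedding and trafficking, 4 rose and 2 fell at the LE at D4 (14.1% of all genes called), while at D7 3 rose and 2 fell (14.6%), with medians of 0.36 and 0.30 against 0.03 and 0.02 over all genes. The metalloprotease genes Adam10 (0.94 and 0.93) and Adam12 (1.08 and 1.59) rose on both days, and so did Adam8 (0.63 and 1.22), while Adam9 rose at D4 (0.81, adjusted p = 0.0484). Leaving out arrays singly ended the Adam9 call in 11 of 12 fits (adjusted p up to 0.252, without LE D4 replicate 2), the D4 call of Adam8 in 2 (up to 0.136, without control D4 replicate 2) and none of those of Adam10 and Adam12 against control. Adam17, the main protease for the release of Tgfa and Ereg precursors, read 0.11 and 0.15, with no call. Adam15 read -0.67 at D4 and 0.01 at D7, also with no call. Timp3, a tissue inhibitor of metalloproteases, among them Adam10, Adam12 and Adam17, changed by -2.29 at D4 (SE 0.29, adjusted p = 0.00076) and by -2.10 at D7 (adjusted p = 0.00149). Rhbdf1, which helps to bring Adam17 to the surface, changed by -0.43 and -0.60, and its D4 call was lost in 3 fits (up to 0.135, without control D4 replicate 2). Rhbdf2 went the other way, at 0.41 and 0.30, with no call. In the hub 0 of 11 were called on either day, but some of these genes read the same way as at the LE. At D4 and D7 Timp3 read -1.27 and -0.96 there, Adam8 0.55 and 0.58 and Adam10 0.45 and 0.57. Adam12 read 0.14 and 0.01. LE minus hub was -1.02 and -1.14 for Timp3, with no call (limma adjusted p = 0.0867 and 0.0755). It was 0.08 and 0.63 for Adam8 and 0.49 and 0.36 for Adam10, also with no call. Adam12 was higher at the LE than in the hub by 0.95 at D4, a call lost in 3 fits (up to 0.0874, without hub D4 replicate 1), and by 1.58 at D7, a call lost in none.

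Of 12 receptor inhibitors and genes of receptor turnover, 2 were lower and 0 higher at the LE on each day, a share near that of all genes called (14.1% at D4 and 14.6% at D7). Errfi1, a feedback inhibitor that binds the receptor kinase, changed by -1.67 at D4 (SE 0.17, adjusted p = 0.000268) and by -1.70 at D7 (adjusted p = 0.000316). Lrig3, a membrane protein of the family of the receptor inhibitor Lrig1, changed by -1.31 (adjusted p = 0.000199) and -0.98 (adjusted p = 0.00118). These 4 calls held whichever array was left out. In the hub Errfi1 read -0.44 (adjusted p = 0.377) at D4 and fell by 1.01 at D7 (adjusted p = 0.0371), which 6 of the 12 fits did not call (up to 0.19, without hub D7 replicate 2). LE minus hub at D4 was -1.23 for Errfi1 and -0.99 for Lrig3, both called in all 12 fits. At D7 it was -0.69 for Errfi1, with no call (adjusted p = 0.0708), and -0.64 for Lrig3 (adjusted p = 0.0342), a call lost in 6 fits (up to 0.154, without hub D7 replicate 1). Lrig1 itself read -0.08 and -0.49, with no call, and the list medians were -0.10 and -0.07, against 0.03 and 0.02 over all genes.

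Of 13 receptor adaptors and effectors, 3 rose and 1 fell at the LE at D4, while at D7 2 rose and 1 fell, where 8.3% of all genes rose and 5.83% fell at D4, and 9.25% and 5.37% at D7. The list medians were 0.21 and 0.15, against 0.03 and 0.02 over all genes. Eps8, a substrate of the receptor kinase that acts on actin, rose by 0.82 and 0.50. The adaptor Grb2 (0.78) and the kinase Src (0.51) rose at D4, and the PI3 kinase catalytic subunit Pik3ca (0.93) at D7. Pik3r1, the regulatory subunit, changed by -0.72 and -1.22, called whichever array was left out, and LE minus hub was -0.66 at D4 and -0.89 at D7, each lost in 2 of 12 fits (up to 0.116, without hub D4 replicate 2, and 0.0631, without hub D7 replicate 2). The D7 call of Eps8 was lost in 9 (up to 0.274, without control D7 replicate 2), that of Pik3ca in 3 (up to 0.15, without LE D7 replicate 1) and that of Src in 3 (up to 0.112, without LE D4 replicate 1). In the hub 0 of 13 were called on either day.

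Of 11 genes of the RAS to ERK core, 6 were measured, and the others were not analysed here. The list medians at the LE were 0.17 and 0.12, and 2 of the 6 rose and 1 fell on each day (14.1% and 14.6% of all genes called). In the hub 0 of 6 were called on either day. At D4 and D7 Map2k1 read 0.32 and 0.18 there, Map2k2 0.28 and 0.23 and Ksr1 -0.15 and -0.46. LE minus hub was called for Map2k1 at D4 (0.94) and not at D7 (0.60). It was not called for Map2k2 (0.24 and 0.28) or Ksr1 (-0.62 and -0.38). Against control, the ERK kinases Map2k1 (1.26 and 0.79) and Map2k2 (0.52 and 0.51) rose at the LE on both days, and the scaffold Ksr1 changed by -0.77 and -0.84. Each of these 6 calls except that of Map2k1 at D4 was lost in 2 or 3 of the 12 fits, with adjusted p up to 0.131 (Map2k2 at D7 without LE D7 replicate 1).

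Of 18 measured feedback regulators and transcription targets of ERK, 2 rose and 6 fell at D4 (8.3% and 5.83% of all genes), while at D7 1 rose and 8 fell (9.25% and 5.37%). The list medians, 0.12 and -0.11 against 0.03 and 0.02 over all genes, differ in sign between the days. Phlda1 rose by 1.29 and 1.83 and the ETS factor Etv4 by 1.06 at D4, while Spry1 and Spred2, inhibitors of receptor signalling, changed by -1.50 and -1.82 and by -0.73 and -0.90, and Myc by -1.16 and -0.71. The calls of Myc and Spred2 against control held whichever array was left out, those of Phlda1 were lost in 9 fits at D4 (adjusted p up to 0.234, without control D4 replicate 2) and 2 at D7 (up to 0.0682, without LE D7 replicate 1), that of Etv4 in 3 (up to 0.139, without control D4 replicate 2) and that of Spry1 at D4 in 2 (up to 0.0768, without LE D4 replicate 2). In the hub 0 of 18 were called at D4 and 1 at D7, Fosl1, which fell by 0.92 (adjusted p = 0.0111; lost in 4 fits, up to 0.106, without hub D7 replicate 2). This gene was not lower in the hub alone, as Fosl1 was also called lower at the LE on both days. It changed there by -0.53 at D4, a call lost in 3 of the 12 fits, and by -0.82 at D7, lost in none. Egr1 (-0.54 and -0.48) and Ier2 (-0.72 and -0.46) were called lower at the LE on both days too, with D7 calls lost in 2 and 4 fits. Dusp6 and Spry2, common readouts of ERK activity, read 0.71 and 0.82 at the LE at D4 and 0.00 and -0.09 at D7, with no call.

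**Figure D4:**
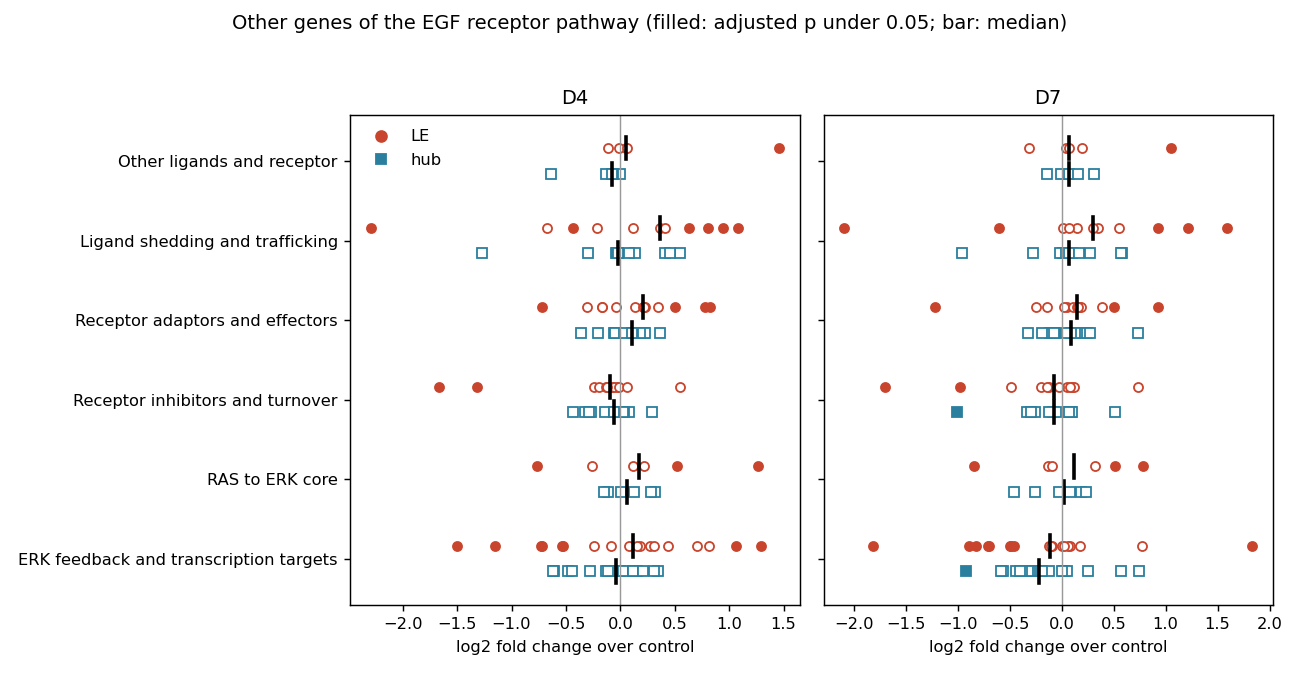
Log2 difference from control for every measured member of the 6 pathway lists, at the LE (circles) and in the hub (squares), at D4 (left) and D7 (right), filled where the adjusted p was under 0.05; the black bar is the median of a list. At the LE genes of most lists lie on both sides of 0, from Timp3 at -2.29 to Nrg1 at 1.46 at D4, and in the hub almost no point is filled.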

How the data were processed

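Basal cells of 6 groups, 2 arrays each, were profiled after amplification of their cDNA on Affymetrix mouse arrays. The deposited table gives log2 intensities for 45141 probe sets, made by the authors with RMA, named in the submitters' processing notes (version not given in the sources used here). The methods also say that the procedure was repeated in 3 technical samples, which the labels do not show. All 12 columns were used as deposited, with no filter on dim probe sets. The probe annotation paired 28898 probe sets with 1 gene, and 28689 of these were matched by gene identifier. Probe sets of several genes (551) or none (15692, controls included) were not used.

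A linear model with 6 groups was fitted in limma 3.58.1 (R 4.3.3) with eBayes, on 6 residual degrees of freedom. All adjusted p values are Benjamini-Hochberg values over all 17097 genes or, for probe sets other than the leading ones, over all 28898 probe sets, with a threshold of 0.05. The number of arrays limits the precision. On simulated data for the LE against control at D4, the fit recovered 71 of 100 genes changed by 1 log2 unit and 94 of 100 changed by 2. These were the only changed genes among 17097, with independent noise, where 14.1% of genes were called in the data. The recovery in the data may therefore differ.

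The members, gene lists, comparisons and motifs were chosen with earlier results of these data known. All members were named, and of each list the called genes with the largest changes or against the list's direction, with the sort antigens and the 5 genes most like each called ligand. Adam9, Adam17, Src, Krt5, Krt14, Lrig1, Dusp6, Spry2, Nrg2, Nrg3, Nrg4 and Erbb4 were named beyond that rule after their values were seen. So were Lgr5, Lhx2, Ivl, Itgam, Lyz2, Csf3r, Tyrp1, Krt79, Defb6, Adam15, Rhbdf2, Egr1, Ier2 and, for the LE, Fosl1. Alternatives were other scalings, other uses of probe sets, a filter on dim genes, array weights, another prior, the arrays of a day alone, variants of the fold rule, a replicate block and fits without each array. Promoter sequence and gene order came from RefSeq. The promoter of Hbegf was not used here.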

Additional observations from a re-analysis of the deposited data

How the results depend on the processing

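The calls of Ereg and Tgfa at the LE against control on both days, and against the hub at D4, held without each array in turn and under every other alternative run for them. For the hub against control at D7 the count of called members went from 1 to 0 under quantile normalization, with each probe set by itself, with only genes above the median level (which leaves out Ereg, Btc and Egf), with the arrays of the day alone and with the replicate block. For the LE against the hub at D7 it went from 2 to 1 under quantile normalization, with the mean of all probe sets and with only genes above the median level. For the LE against control at D4 it went from 3 to 5 with a trended and robust prior, which added Hbegf (limma adjusted p = 0.0368) and Egfr (adjusted p = 0.0338). Members past the fold rule in the hub at D7 went from 0 to 1, which was Ereg, with the mean of both control arrays, with the fold of group means and, chosen after seeing the data, without replicate 1. The cause of these moves was not tested, apart from the members left out.

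Without each array in turn, called members numbered 2 to 4 for the LE against control at D7, 0 to 1 for the hub against control at D7 and 0 to 3 for the LE against the hub at D7. Differences that were not called changed sign in places. Under quantile normalization Hbegf at the LE at D7 was -0.014, and with the mean of all probe sets the hub at D4 gave -0.039 for Hbegf, -0.079 for Btc and 0.023 for Erbb3. Without each array in turn, the LE against control ranged from -0.27 to 0.011 for Egf at D4, from -0.082 to 0.10 for Egf at D7 and from -0.22 to 0.023 for Erbb3 at D7. The hub against control at D4 ranged from -0.25 to 0.22 for Epgn, -0.094 to 0.24 for Hbegf, -0.048 to 0.18 for Btc, -0.25 to 0.032 for Egf, -0.068 to 0.27 for Erbb2 and -0.22 to 0.044 for Erbb3. At D7 it ranged from -0.18 to 0.10 for Epgn and -0.098 to 0.037 for Erbb3. The LE against the hub ranged from -0.10 to 0.063 for Egf and -0.31 to 0.047 for Egfr at D4, and from -0.19 to 0.054 for Erbb3 at D7. The change of the hub difference of Tgfa from D4 to D7 ranged from -0.35 to 0.52.

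Arrays of different groups share replicate numbers, and deviations of same-numbered arrays from their group means correlated at 0.170 to 0.245 at D4 and 0.002 to 0.067 at D7. At D4 every pair of groups was over 0.1 and at D7 none was, and nothing in the labels says what a number shares. The replicate block had a term for each day and left the number of called members at D4 as it was. With this replicate block, Ereg in the hub at D7 (adjusted p = 0.0689) and Epgn at the LE at D7 (adjusted p = 0.0546) lost their calls.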
